A study of Cucumis melo with 12 samples.

Results

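The data describe 5 melon (*Cucumis melo*) genes of transposable elements, which are 4 Gag/pol genes (MELO3C027784, MELO3C028181, MELO3C034502 and MELO3C031213) and a plant transposase gene (MELO3C028271). They were taken by identifier from the study's supplementary gene list, where they are all the genes described as Gag/pol or transposase, out of 3256 features listed in the deposited data. The authors picked that list from these same samples, so the presence, direction, size and rank of its genes' values here are not independent evidence. RNA was sequenced from seeds and from 5-day-old radicles in 12 libraries, 2 for each of 6 groups. Melon seeds (var. Rochet Panal) were surface sterilized and kept for 90 min in water (mock) or in a suspension of *Bacillus velezensis* FZB42, a plant-associated bacterium. The low dose had a log10 CFU per ml of 7 and the high dose one of 8. Seed RNA was profiled right after treatment and radicle RNA after germination on moist paper in darkness, and both tissues were compared with their own mock group.

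Transposable elements are DNA sequences that can move within a genome. Retrotransposons do so through an RNA copy: the Gag part of their product forms a particle around that RNA, and the Pol part holds the protease, reverse transcriptase, RNase H and integrase that turn the RNA into new genomic DNA. DNA transposons are instead excised and reinserted by a transposase. Plants usually keep both kinds silent through DNA methylation and small RNAs, and stress is known to raise the transcripts of some of them. Such genes often exist in many near-identical copies, and how reads that match several copies were counted is not given in the sources used here, so a value may hold reads of other copies or lack its own.

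Each group has 1 deposited value per gene, combined by the authors from both libraries, and only selected genes are listed. Mock, high-dose and low-dose radicles have lists of 3147, 3106 and 291 features, and the seed groups in the same order have lists of 153, 32 and 131. Values are called FPKM in the headers of all lists but that of low-dose seeds. In the mock radicle list, however, up to 46 genes share the same low value, which a level per transcript length would not give, so the values of all lists are given here as a relative signal whose scale is not stated. How many reads a value rests on is unknown. With no values per library there is no replicate error, so no difference below was tested. A gene that is not on a list has no value there and was not set to 0. The tissue labels could not be checked against marker genes, because the identifiers are not annotated in the sources used here.

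In seeds 3 Gag/pol genes were listed that are on no radicle list, and the other Gag/pol gene and the transposase were listed in radicles and on no seed list. All of them were on the mock and the high-dose list of their tissue, and 0 of the 5 were on a low-dose list. Neither pattern is particular to these genes: the tissues share 44 features, which is 28.8% of the seed and 1.40% of the radicle features, and 92.0% of the high-dose radicle list and 68.8% of the high-dose seed list are not on the low-dose list. Seed and radicle values come from separate lists and were not compared with each other.

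**Figure D1:**
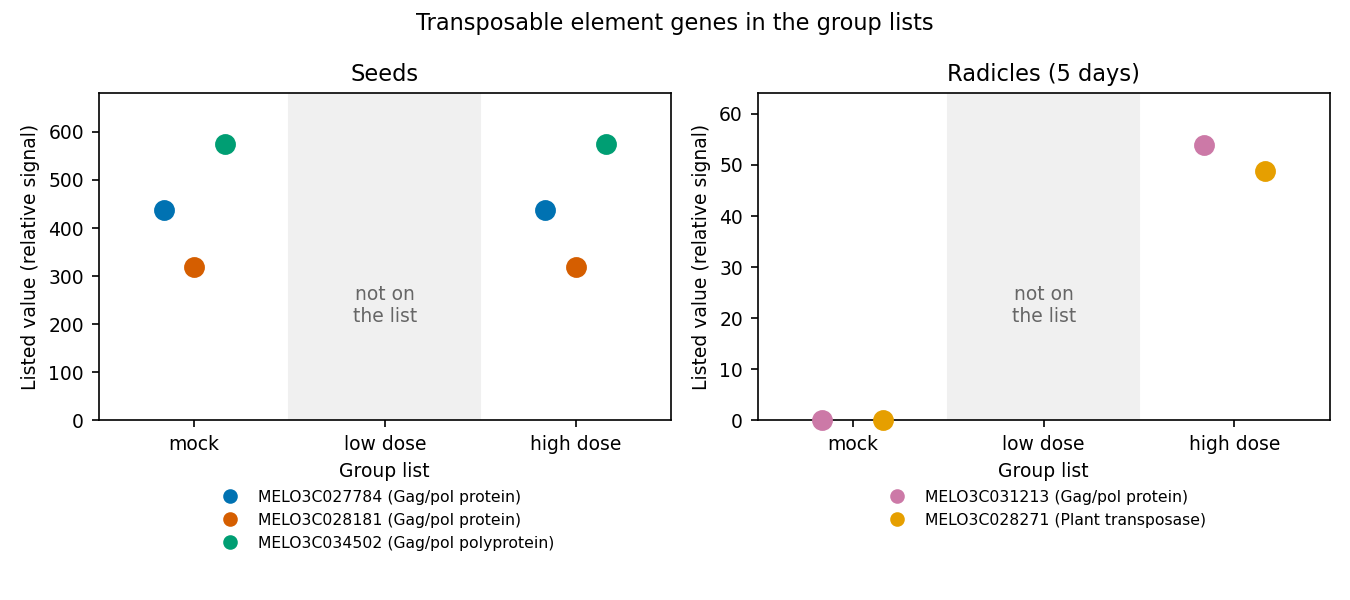
Listed value (relative signal, linear axis from 0) of each transposable element gene in the mock, low-dose and high-dose lists of seeds (left) and radicles (right), 1 point per gene and group, with no error bars because the authors combined the libraries. The seed genes sit at the same height in mock and high dose, the radicle genes go from 0 in mock to 53.9 and 48.9, and the grey band marks the low-dose lists, which hold none of them.

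In radicles, the Gag/pol gene MELO3C031213 had a high-dose value of 53.9, against 0 in mock. The transposase MELO3C028271 had one of 48.9, also against 0 in mock. Both were thus higher at the high dose, and no fold is given because mock is at 0. The size of these values depends on scaling: median ratio scaling gives 92.9 and 84.3, and quantile normalization 4.36 and 3.53. Neither procedure can change the order of the genes. The quantile values are taken from the low end of the mock values of the features on the high-dose list. Of these features 201 are at 0 in mock, against 8 at the high dose. The zeros are a residual of 1.39e-17 in the file, the same number for each of the 201 features at 0 in mock on the high-dose list. Those 201 make up 6.47% of the high-dose list, and 31.3% of that list was higher than mock by a log2 of over 1 after adding 1 to both values. Of the list, 12.7% had a lower high-dose value than MELO3C031213 and 12.2% a lower one than MELO3C028271, so both values lie in the low range of what was listed.

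Among the features listed at 0 in mock radicles, however, the transposable element genes had high values. The 201 high-dose values ran from 10.1 to 1799, with a median of 18.7 and a middle range of 13.6 to 27.2. MELO3C031213 was the 11th highest and MELO3C028271 the 13th. Of the 10 features above MELO3C031213, 8 were also on the low-dose list. They include the proteasome subunit beta MELO3C027069, from the main protease complex of the cell, at 1799. Of the 181 features at 0 in mock that were on the high-dose and not the low-dose list, 2 exceeded both transposable element genes. One is XLOC_030088, which carries no melon identifier, at 965 (named after its value was seen). The other is MELO3C032743, at 57.6, the nearest in value to MELO3C031213 among the 166 other melon genes of these 181 features (a log2 difference of 0.094 over the single value that can be compared). The nearest of the same 166 genes to the transposase was MELO3C006850, at 48.8, with a log2 difference of 0.0015. The gene list supplies 1 other gene of this pattern, the respiratory burst oxidase MELO3C020689, a superoxide-producing enzyme of the plasma membrane, at 15.5. These ranks compare listed values that are not per length, and do not order the genes by transcript number. No feature at 0 in mock was on the high-dose list with a value under 10.1, so the 201 were themselves selected on the value compared. Both transposable element genes were chosen by the authors from these same samples, so their high ranks are description and not support.

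**Figure D2:**
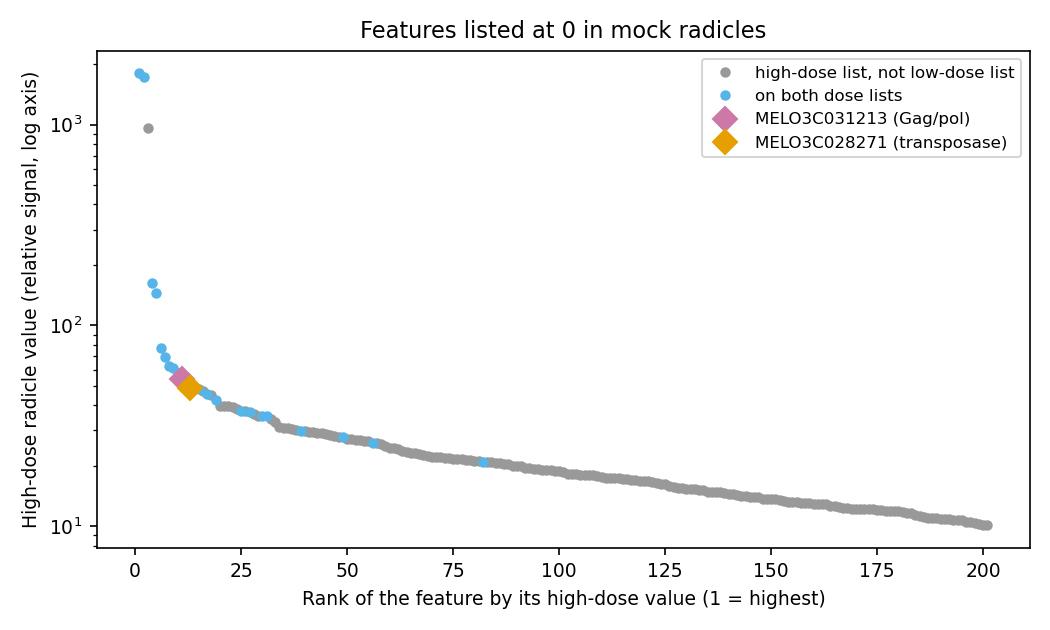
High-dose radicle value (relative signal, log axis) of the 201 features listed at 0 in mock radicles, ordered from highest to lowest, with blue points for the features also on the low-dose list. The Gag/pol gene (53.9) and the transposase (48.9) lie next to the blue points and far above the median of 18.7.

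Low values in the mock radicle list came in steps. The value 0.549 was shared by 37 genes, 1.10 by 46, 1.65 by 18 and 2.20 by 24, which are near whole multiples of the first. In units of this mock step the high-dose values of MELO3C031213 and MELO3C028271 come to 98.1 and 89.0. In the high-dose list no value was shared by more than 4 genes, so its own step could not be read and these multiples are not read counts. Features with a mock value above 0 and under 3 (165, a bound set after the values were seen) had a median of 35.4 at the high dose, and MELO3C031213 exceeded 81.2% of them and MELO3C028271 77.6%. High-dose values of these 165 began at 16.2, so this set too holds only features raised at the high dose, and the shares are description.

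Neither radicle gene was on the low-dose list, which gives no low-dose value for them. The low-dose list holds 24 features at 0 in mock, or 8.25% of it, and their low-dose values began at 78.3 and had a median of 142. Over the whole low-dose list the lowest value above 0 was 16.9. For the 20 features at 0 in mock on both lists, high-dose values began at 20.9 and had a median of 46.7. Low-dose values of the same 20 began at 106 and had a median of 142. The dose lists have no stated common scale, so the high-dose values of the transposable element genes were not compared with low-dose values. Whether either gene differed between the doses cannot be told from these lists.

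In seeds, MELO3C027784 had a value of 437 on the mock list and of 437 on the high-dose list. MELO3C028181 was listed at 320 in both groups, and MELO3C034502 at 574 in both. All 3 are retrotransposon Gag/pol genes, and their pairs of values agree within a relative tolerance of 1e-06. The same holds for 22 of the 32 features on the high-dose seed list, or 68.8%, so identity is the rule on that list and says nothing particular about these genes. It held for each of the 22 features that were not on the low-dose seed list and for 0 of the 10 that were, where the mock list held the low-dose value instead. The mock seed list thus holds no number of its own for any of these 32 features, and neither the level of these Gag/pol genes in mock seeds nor their change with treatment can be had from the lists.

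**Figure D3:**
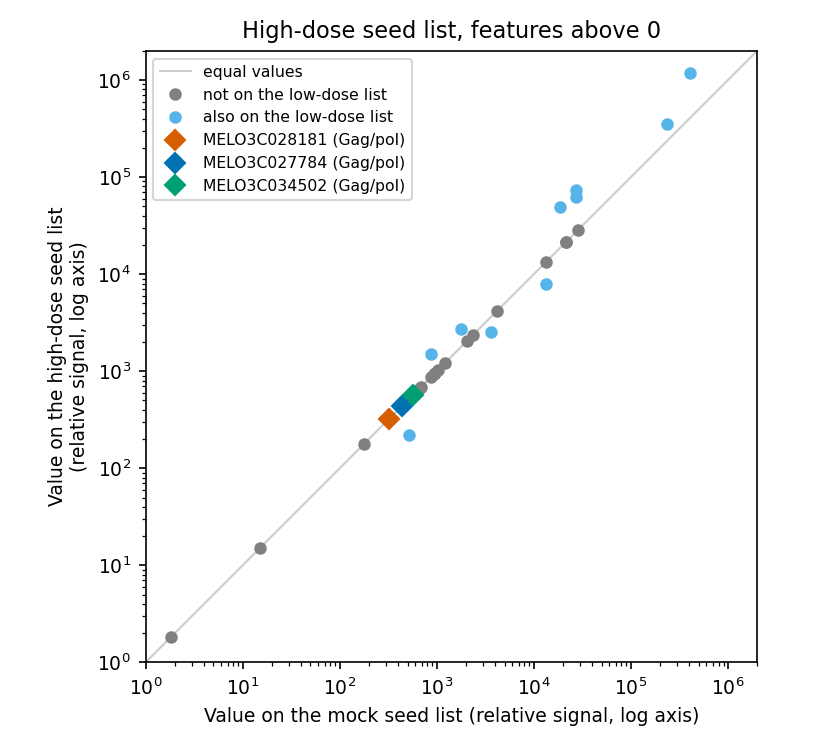
Value on the high-dose seed list against value on the mock seed list (relative signal, both axes log), 1 point per feature above 0, with the line of equal values. The 3 Gag/pol genes (320, 437 and 574) and the other features not on the low-dose list lie on the line, and only the features also on the low-dose list (blue) leave it.

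The values themselves place the Gag/pol genes well above 0 on the high-dose seed list, while their level in mock seeds stays unknown. In order they were the 7th (MELO3C028181), 8th (MELO3C027784) and 9th (MELO3C034502) lowest of the 32 high-dose seed values, below the list's median of 1367. The melon gene nearest to all of them together was MELO3C023435, at 666, with a summed log2 difference of 1.88 over 3 comparisons. Of the 22 features of this pattern, 10 were on no radicle list, the Gag/pol genes among them. Over all seed lists, 44 of the 153 features (28.8%) were on a radicle list, but 131 of the 153 are on the low-dose list, which holds no Gag/pol gene. Such absence is thus not particular to the Gag/pol genes. The gene list names 5 others of the pattern: a peroxidase, which oxidizes substrates with hydrogen peroxide (MELO3C002457, at 694), a proline-rich protein (MELO3C005540, at 4202), a myb-type putative transcription factor (MELO3C014217, at 21202), the proteasome subunit beta MELO3C027069 and the RNA polymerase II subunit RPB7 (MELO3C027194). The last pair was at 0 on both seed lists. The mock list has no number of its own for them either, so their level in mock seeds is unknown. In radicles both were at 0 in mock, with 1799 for the proteasome subunit and 146 for RPB7 at the high dose. Both are thus on the mock and high-dose lists of each tissue. Unlike the transposable element genes they are also on the low-dose radicle list, at 2540 and 211. The peroxidase too was on the mock and high-dose lists of both tissues, and on no low-dose list. In radicles its value was lower at the high dose (23115) than in mock (47778).

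The transposable element genes also share a high identifier number, which their selection did not use: MELO3C027784 is the lowest of them. Of the melon identifiers on all lists, 13.8% carry that number or a higher one. The share was 54.3% (101 of 186) among genes at 0 in mock radicles on the high-dose list, compared with 11.0% (303 of 2757) among the others of that list and 30.7% (201 of 654) among those of the others that were higher than mock by a log2 of over 1. It was 47.9% (70 of 146) among genes above 0 and under 3 in mock, so a high share was not confined to genes at 0. These 146 genes are among the 654, and all had high-dose values of 16.2 or more. A low mock value therefore cannot be told apart from a large rise here. On the low-dose radicle list, whatever the mock value, it was 30.2% (81 of 268). On the high-dose seed list it was 36.7% (11 of 30), and without low-dose genes 42.9% (9 of 21, with the Gag/pol genes 3 of the 9). On the low-dose seed list it was 16.5% (21 of 127). This number was chosen as a bound after the values were seen, the shares are descriptions, and what high numbers stand for is not given in the sources used here.

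**Figure D4:**
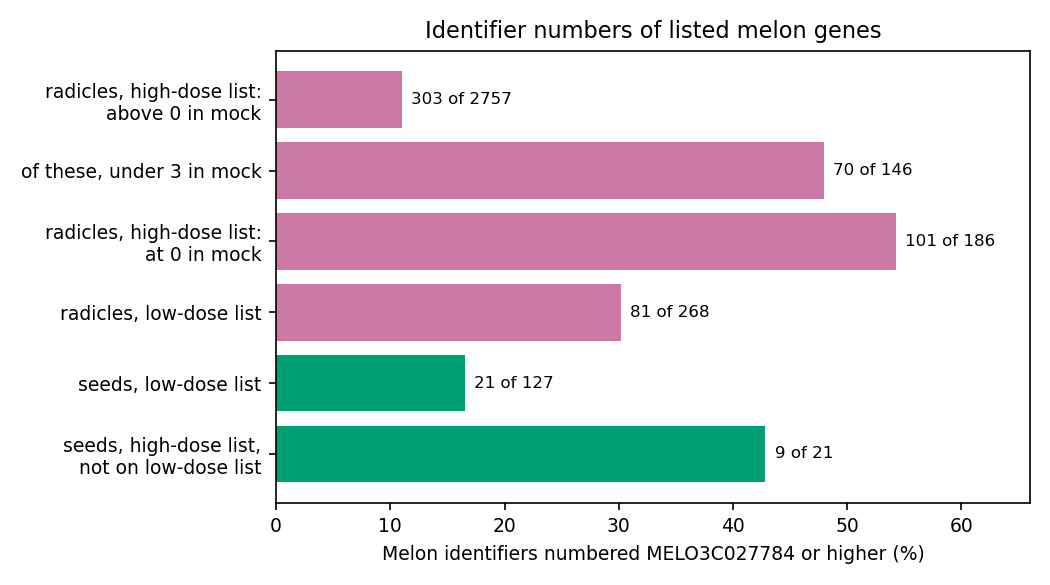
Share of melon identifiers numbered MELO3C027784 or higher (%, axis from 0) in 6 sets of listed genes, pink for radicles and green for seeds, with counts beside the bars. Genes at 0 in mock radicles (54.3%) and genes above 0 and under 3 in mock (47.9%) have the longest bars, against 11.0% for all genes above 0 in mock.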

How the data were processed

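In the study's methods, reads of rRNA-depleted, directional libraries were aligned to melon cv. DHL92 v4 with the sequencing provider's pipeline, whereas the submitters' labels name polyadenylated RNA and their processing notes Bowtie2 and SAMtools. The choice of library decides whether transcripts without a poly(A) tail are seen. The deposited values, 1 per gene and group, are named FPKM by the authors and were treated as signal of unstated scale. Values under 1e-10 were taken as 0. Identical means within a relative tolerance of 1e-06, and log2 differences have a pseudocount of 1.

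The genes, lists and rules were chosen with earlier results of these data known. Genes named are the 5 members, genes of the study's list on the same lists, and, among melon genes of the same list pattern that are not on the low-dose list, those nearest in log2(value + 1), 1 for each radicle gene and 1 for the seed genes together. None of the 3256 identifiers matched the RefSeq table for melon (0 matched), so no positions or sequences are given. Counts were tested on simulated data. Alternatives were other bounds for 0, tolerance, median ratio scaling, quantile normalization, leaving out XLOC loci (features without a melon identifier) or zeros, another pseudocount, a minimum of 10 and a log2 threshold of 2. Python 3.11.15, pandas 2.3.3, numpy 2.4.6 and matplotlib 3.10.9 were used.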

Additional observations from a re-analysis of the deposited data

How the results depend on the processing

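No paired analysis was possible because each group has a single combined column, and leaving out each replicate was not run for the same reason. Of 27 alternatives, 21 left their result within 1.5 times of the value given above. Of the 5 transposable element genes, 2 were at 0 in mock radicles and 3 had identical seed values under each bound and tolerance tried. Neither count could have changed, because the bounds and the tolerance tried were looser than those used. The minimum of 10 left out 0 features, so it could not move its result either. These outcomes are among the 21 and lend them no support. With a log2 threshold of 2, the share of high-dose radicle features higher than mock fell from 31.3% to 21.0%. That result is also among the 21, though close to the bound of 1.5 times. Scaling moved the high-dose radicle values: MELO3C031213 came to 92.9 with median ratio scaling and 4.36 with quantile normalization, and MELO3C028271 to 84.3 and 3.53. Whether either scaling suits lists of selected genes was not tested. With identifier bounds of 25000 and 30000, chosen after the data were seen, the share of high identifiers was 61.8% and 32.3% among genes at 0 in mock radicles, and 19.9% and 7.40% among the others. Without read counts, what depth limits was not computed.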
